A study of Equus caballus with 18 samples.

Results

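The genes described here encode complement proteins made or displayed by phagocytes: the anaphylatoxin receptors C3AR1 and C5AR1, the integrin alpha chains ITGAM and ITGAX, properdin (CFP), the C1q chains C1QA, C1QB and C1QC, and C3. A gene was represented by a probe set that carries its symbol and no other, and 8 of the 9 genes had 1 such probe set each, among 16661 genes measured in this way. C3 had none and was not analysed here. The RNA was that of synovial fluid, which lubricates the joint. It was drawn from 6 adult, exercised Thoroughbreds that had 8 mg of the corticosteroid isoflupredone acetate injected into the right antebrachiocarpal joint of the carpus. The Baseline arrays hold fluid drawn before the injection, the 24 hr arrays fluid drawn 24 h after it, and the Day 7 arrays fluid drawn 7 days after it. The horses were between 4 and 8 years old, a range given for all 12 horses of the study, which were geldings and mares. The study also injected saline, but those joints were not analysed here. Drug, injection, repeated sampling and, by day 7, the return to exercise therefore cannot be told apart. Whole fluid was lysed without cell sorting.

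Complement is a cascade of plasma proteins that marks microbes, immune complexes and dying cells for removal. C1q, built from A, B and C chains, recognises the target and opens the classical pathway, and properdin steadies the enzyme of the alternative pathway on the target surface. Cleavage of C3 and C5 releases the peptides C3a and C5a, which act on phagocytes through C3AR1 and C5AR1, while C3 fragments fixed to the target are bound by complement receptors 3 and 4, the integrins whose alpha chains are ITGAM (CD11b) and ITGAX (CD11c). Most complement proteins of plasma are made in the liver, but C1q and properdin come largely from myeloid cells, and joint fluid carries macrophages, neutrophils and lymphocytes.

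Expression is given throughout as the log2 value of a gene's probe set. For horses 1 and 2, the deposited Day 7 columns held equal values at 99.3% of probe sets, including those of the 8 genes. The next closest pair of columns shared 2.05%. Both columns of horses 1 and 2 were averaged and counted as 1 array shared by these horses, which leaves 6 arrays at Baseline, 6 at 24 hr and 5 at Day 7. In comparisons by horse, the shared array was set against the mean of both horses at the earlier time. The number of arrays limits the precision. The SD of the log2 values of an array, called array spread, ran from 1.22 to 1.499 at Baseline, 1.40 to 1.72 at 24 hr and 1.53 to 1.82 at Day 7. All 8 probe sets were among the brightest 7638 by mean value. The median log2 change of these bright probe sets was 0.35 at 24 h and 0.51 at day 7, while the median over all 30559 probe sets was -0.063 and -0.24.

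At day 7 the receptors, the integrin chains and properdin were higher than at Baseline, and the C1q chains did not pass the test. C3AR1 rose 10.3-fold, C5AR1 3.74-fold, ITGAM 3.69-fold, CFP 3.68-fold and ITGAX 3.44-fold (limma with the horse as a block, adjusted over all probe sets, called at an adjusted p under 0.05). In all, 5 of the 8 genes were called higher and 0 lower, with a median log2 change of 1.83. Of all probe sets 27.3% were called, with 11.9% of all called higher, and among the brightest 7638 probe sets 31.5% were called higher, so calls were common at this time. Without adjustment 43.6% had a p under 0.05. Of the 8 genes, C3AR1, CFP and ITGAX had Day 7 groups that lay wholly above Baseline, as did 3.62% of all probe sets. With the SD of each array as a covariate, limma called 0 of the 8 genes and 0 of all probe sets, of which 1926 had an unadjusted p under 0.05, and C3AR1 stood at a log2 change of 0.90 (adjusted p = 0.868). Every Day 7 array had a larger SD than any Baseline array, so this fit cannot separate array spread from time. In bulk fluid, more cells of a type and more RNA per cell cannot be told apart.

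**Figure D1:**
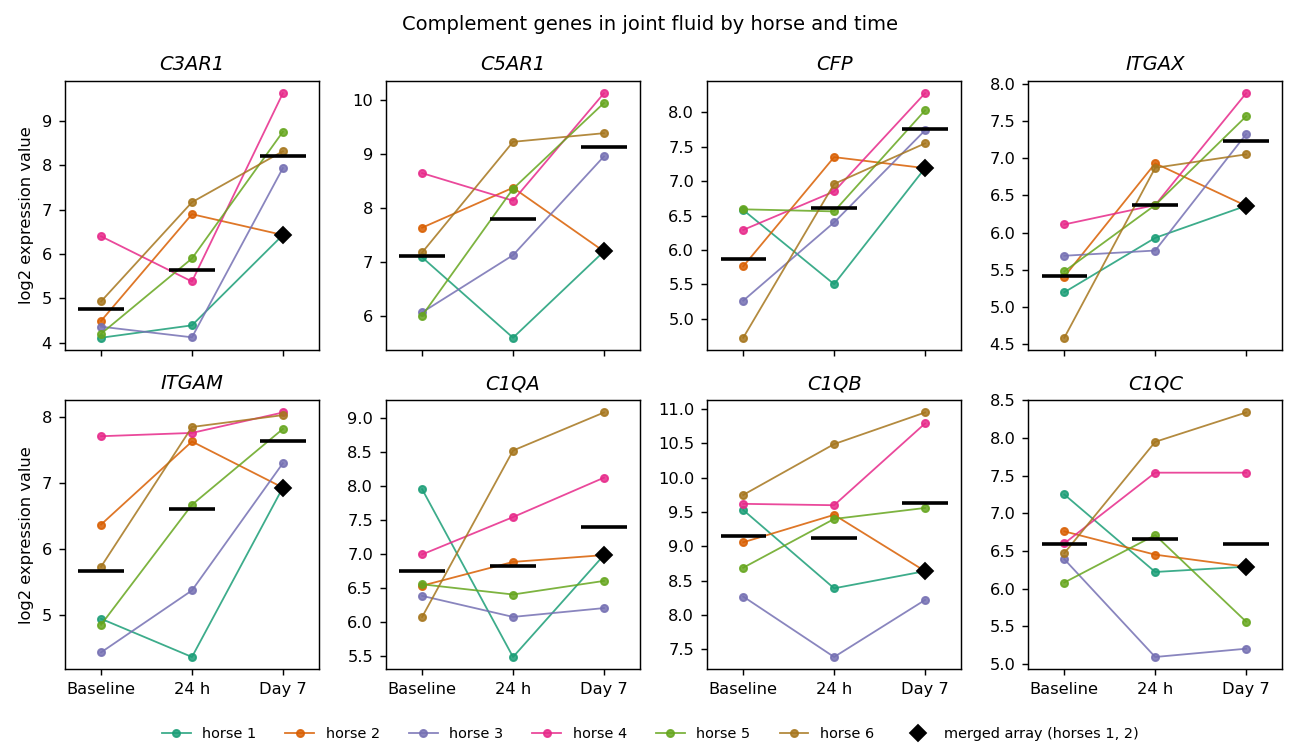
Log2 expression value (y axis) of the 8 complement genes at the 3 times (x axis). Lines join the arrays of a horse, short black bars are group means, and the diamond is the single Day 7 array that stands for horses 1 and 2. C3AR1, CFP and ITGAX lie higher on every Day 7 array than on any Baseline array, and the C1q chains fan out without a common direction.

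C3AR1, the receptor for C3a, ran from 4.11 to 6.40 at Baseline, with a median of 4.42. At 24 hr it ran from 4.12 to 7.17, with a median of 5.64. At Day 7 it stood at 6.43 on the array shared by horses 1 and 2, and at 7.94, 9.63, 8.76 and 8.32 in horses 3 to 6. The lowest Day 7 array was thus just above the highest Baseline array, which was that of horse 4. The log2 change at day 7 was 3.36 ± 0.50 (SE, adjusted p = 0.00333), with a 95% confidence interval from 2.29 to 4.44, and C3AR1 was higher in 5 of 5 horse comparisons. It kept its call in 35 of 36 alternative settings, all but the one with array spread as a covariate.

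C5AR1, the main receptor for C5a and a strong attractant receptor of neutrophils and monocytes, ran from 6.01 to 8.65 at Baseline, with a median of 7.14. At 24 hr it ran from 5.60 to 9.23, with a median of 8.25. At Day 7 it stood at 7.20 on the shared array and at 8.96, 10.13, 9.95 and 9.39 in horses 3 to 6. The groups overlapped, because the shared array lay within the Baseline range while the other 4 lay above it. The log2 change was 1.90 ± 0.52 (SE, adjusted p = 0.0207), higher in 4 of 5 horse comparisons. The exception was the shared array, which lay above the Baseline value of horse 1 (7.09) and below that of horse 2 (7.64). C5AR1 lost its call in 10 of 36 alternative settings. These were quantile normalization (1.35, adjusted p = 0.0716), array spread as a covariate (-0.46), the fits without horse 3, 5 or 6, without the Baseline array of horse 5 or 6, and without the Day 7 array of horse 3, 4 or 5, where the adjusted p lay between 0.0513 and 0.095.

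ITGAM, the alpha chain of complement receptor 3 on macrophages and neutrophils, ran from 4.43 to 7.71 at Baseline, with a median of 5.33. At 24 hr it ran from 4.36 to 7.85, with a median of 7.15, and at Day 7 it stood at 6.93 on the shared array and at 7.30, 8.07, 7.82 and 8.03 in horses 3 to 6. Its groups overlapped through horse 4, whose Baseline value was already 7.71. The log2 change at day 7 was 1.88 ± 0.38 (SE, adjusted p = 0.00849), higher in 5 of 5 horse comparisons but by 0.36 in horse 4. The range of ITGAM narrowed from 3.28 at Baseline to 1.14 at Day 7, a description with no test.

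ITGAX, the alpha chain of complement receptor 4 on macrophages and dendritic cells, ran from 4.59 to 6.11 at Baseline, with a median of 5.45. At 24 hr it ran from 5.76 to 6.93, with a median of 6.37, and at Day 7 it stood at 6.36 on the shared array and at 7.32, 7.87, 7.56 and 7.05 in horses 3 to 6. The Day 7 arrays were all above Baseline and lay closer together than those of C3AR1. The log2 change was 1.78 ± 0.30 (SE, adjusted p = 0.00519), higher in 5 of 5 horse comparisons.

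CFP, which encodes properdin, ran from 4.72 to 6.59 at Baseline, with a median of 6.03. At 24 hr it ran from 5.50 to 7.35, with a median of 6.71, and at Day 7 it stood at 7.19 on the shared array and at 7.74, 8.28, 8.03 and 7.55 in horses 3 to 6. Like ITGAX it did not overlap with Baseline. The log2 change was 1.88 ± 0.37 (SE, adjusted p = 0.00747), higher in 5 of 5 horse comparisons. CFP, ITGAX and ITGAM each kept their day 7 call in 35 of 36 alternative settings, again all but array spread as a covariate.

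**Figure D2:**
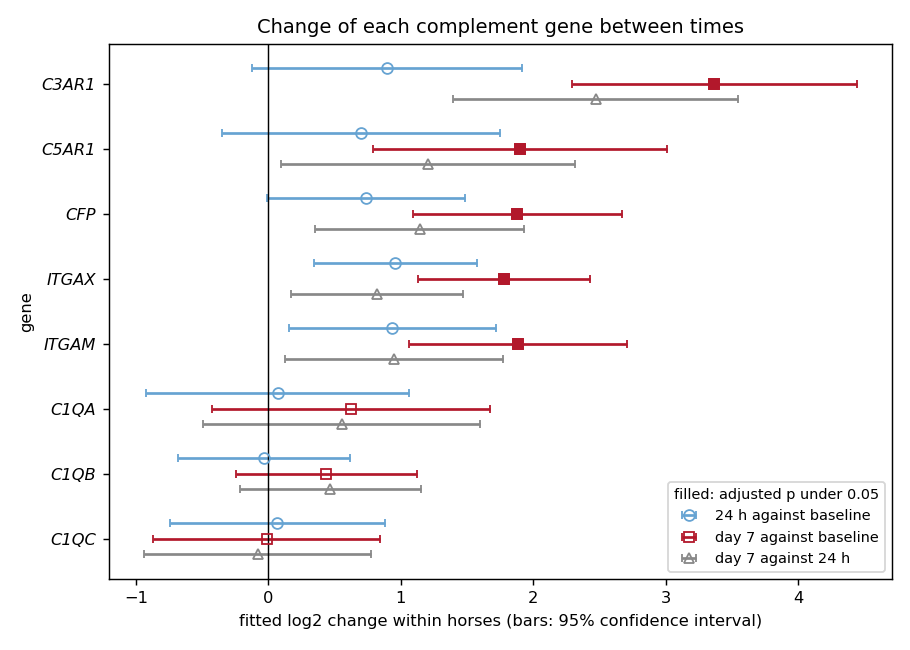
Fitted log2 change within horses (x axis) of the 8 genes (y axis) for the 3 comparisons, with 95% confidence intervals as bars. Filled symbols passed the test: they are the day 7 changes of C3AR1, C5AR1, CFP, ITGAX and ITGAM, from 1.78 to 3.36, and no C1q chain is among them.

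The C1q chains form the recognition subunit of the classical pathway. C1QA ran from 6.07 to 7.95 at Baseline (median 6.54) and from 5.48 to 8.52 at 24 hr (median 6.64). At Day 7 it stood at 6.98 on the shared array and at 6.20, 8.12, 6.60 and 9.08 in horses 3 to 6. C1QB ran from 8.27 to 9.75 at Baseline (median 9.29) and from 7.39 to 10.49 at 24 hr (median 9.43). At Day 7 it stood at 8.64, then 8.22, 10.79, 9.56 and 10.95 in the same order. C1QC ran from 6.08 to 7.25 at Baseline (median 6.54) and from 5.09 to 7.95 at 24 hr (median 6.58). At Day 7 it stood at 6.29, then 5.20, 7.54, 5.56 and 8.34. Every chain was highest in horse 6 and lowest in horse 3 at Day 7. For C1QB and C1QC the Day 7 values reached above and below the Baseline range, and for C1QA they reached above it only.

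The log2 change at day 7 was 0.62 ± 0.49 for C1QA (SE, adjusted p = 0.33), 0.44 ± 0.32 for C1QB (adjusted p = 0.297) and -0.010 ± 0.40 for C1QC (adjusted p = 0.987). With 1 horse or array left out the change of C1QA ran from 0.10 (without horse 6) to 1.04 (without the Baseline array of horse 1), and that of C1QB from 0.26 (without horse 4) to 0.71 (without the shared Day 7 array). It was also 0.11 and 0.34 for C1QA without the Baseline or the Day 7 array of horse 6. For C1QB it was 0.27 without horse 6 or its Baseline array, 0.26 without the Day 7 array of horse 4 and 0.67 without the Baseline array of horse 1. The 95% confidence intervals of the fold change ran from 0.747 to 3.18 for C1QA, from 0.843 to 2.17 for C1QB and from 0.548 to 1.80 for C1QC. The fold changes fitted for the 5 called genes, from 3.44 (ITGAX) to 10.3 (C3AR1), lay above all 3 intervals, and smaller rises and falls lay within them. The intervals themselves were not all apart: that of CFP, from 2.13 to 6.35, overlapped those of C1QA and C1QB. The difference between the C1q chains and the other 5 genes was not tested. No chain was called in any comparison under any of 36 alternative settings. The lowest adjusted p over these settings at day 7 was 0.0555 for C1QA and 0.0806 for C1QB (limma). Without the Baseline array of horse 1, 7 of the 8 genes had an unadjusted p under 0.05 at day 7, against 5 in the main fit. That array held the highest Baseline values of C1QA (7.95) and C1QC (7.25). The range over arrays of C1QC was 1.17 at Baseline, 2.86 at 24 hr and 3.14 at Day 7, and that of C1QB was 1.48, 3.10 and 2.73, so the horses stood further apart after the injection, a description with no test.

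At 24 h none of the 8 genes passed the test, where 1.01% of all probe sets did (310 probe sets, 166 higher and 144 lower). The median log2 change of the 8 genes was 0.72. ITGAX had a log2 change of 0.96 ± 0.29 (SE, adjusted p = 0.101) and was higher in 6 of 6 horses, with 4 of 6 arrays above the highest Baseline array. ITGAM stood at 0.94 ± 0.36 (adjusted p = 0.179), C3AR1 at 0.90 ± 0.47 (adjusted p = 0.314), CFP at 0.74 ± 0.35 (adjusted p = 0.257) and C5AR1 at 0.70 ± 0.49 (adjusted p = 0.446). Of these, ITGAX and ITGAM had an unadjusted p under 0.05, as 19.9% of all probe sets did.

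The values at 24 h differed widely between horses. C3AR1 changed by 2.41, 2.24 and 1.70 on the log2 scale in horses 2, 6 and 5, by 0.28 and -0.24 in horses 1 and 3, and by -1.02 in horse 4. Without the 24 hr array of horse 2 its fitted change was 0.51, and without horse 2 it was 0.59. The change of C5AR1 was 1.21 without the Baseline array of horse 1 and 1.14 without horse 1, but 0.33 without the Baseline array of horse 5, 0.37 without horse 5, 0.43 without horse 6 and 0.46 without the 24 hr array of horse 6. That of CFP was 0.44 without horse 6 and 0.49 without its Baseline array. CFP was called at 24 h in 1 of 36 alternative settings, the fit without the Baseline array of horse 1 (1.11, adjusted p = 0.0457). The C1q chains changed by 0.070 ± 0.46 (C1QA), -0.032 ± 0.30 (C1QB) and 0.068 ± 0.38 (C1QC, all SE), none of them called. The individual horses ran from -2.47 in horse 1 to 2.45 in horse 6 for C1QA, so a mean near 0 stood over opposite changes.

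Between 24 h and day 7, 0 of the 8 genes and 0 of all 30559 probe sets were called (0%), while 13.2% of all probe sets had an unadjusted p under 0.05. C3AR1 differed most, with a log2 change of 2.47 ± 0.50 (SE, unadjusted p = 0.000236 and adjusted p = 0.179, limma), higher at day 7 in 5 of 5 horse comparisons by 0.79 to 4.25. It was called in 5 of 36 alternative settings. These were array weights (2.92, adjusted p = 0.00312) and the fits without horse 2 (2.82, adjusted p = 0.0148), without its 24 hr array (2.79, adjusted p = 0.0205), without the shared Day 7 array (2.91, adjusted p = 0.0418) and without both of these arrays (3.06, adjusted p = 0.0147). CFP stood at 1.14 ± 0.37 (adjusted p = 0.267), C5AR1 at 1.20 ± 0.52 (adjusted p = 0.352), ITGAM at 0.95 ± 0.38 (adjusted p = 0.332) and ITGAX at 0.82 ± 0.30 (adjusted p = 0.302). For each of these 5 genes the mean ran upward from Baseline over 24 hr to Day 7, but neither step alone passed the test. The mean of C1QA ran upward as well, from 6.745 over 6.815 to 7.396. Its log2 change between 24 h and day 7 was 0.55 ± 0.49 (SE, adjusted p = 0.584), higher in 5 of 5 horse comparisons. C1QB stood at 0.47 ± 0.32 (adjusted p = 0.503) and C1QC at -0.079 ± 0.40 (adjusted p = 0.924). The comparisons share arrays, so their changes are not independent.

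**Figure D3:**
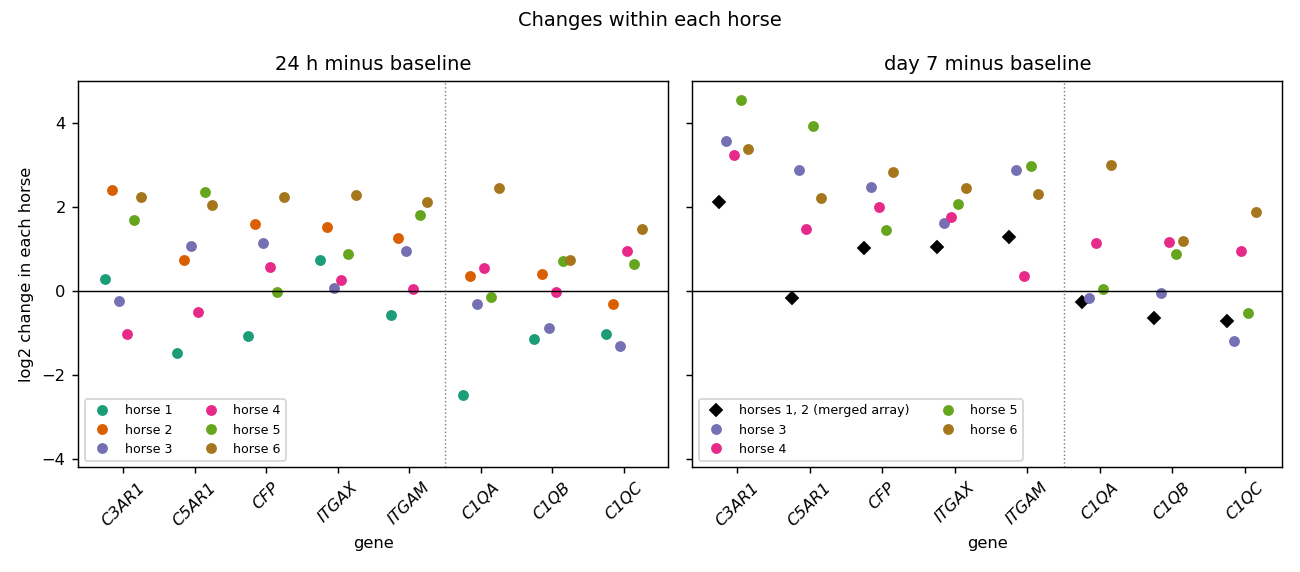
Log2 change from Baseline in each horse (y axis) of the 8 genes (x axis) at 24 h on the left and at day 7 on the right. The black diamond is the array shared by horses 1 and 2, set against the mean of their Baseline arrays. The dotted line separates the receptors, integrin chains and properdin from the C1q chains. At day 7 the first 5 genes lie above 0 in every horse except for C5AR1 on the shared array, and the C1q chains lie on both sides of 0.

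The same arrays tended to hold the extreme values. At Baseline horse 4 was highest for 4 of the 5 receptor, integrin and properdin genes. At 24 hr horse 6 was highest for 3 of these 5 genes and for all 3 C1q chains, and horse 1 was lowest for 3 of the 5. At Day 7 horse 4 was highest for all 5 and the shared array of horses 1 and 2 lowest for all 5. Among the 8 day 7 changes of a horse, that of C3AR1 was the largest in 5 of 5 horse comparisons. The C1q chains changed in the same direction as one another in horses 3, 4 and 6. They also did so on the shared array, when set against the mean Baseline of horses 1 and 2. They were lower in horse 3 and on the shared array, by 0.05 to 1.19 on the log2 scale, and higher in horses 4 and 6, by 0.94 to 3.01. On the shared array C1QA (6.98) lay below the Baseline value of horse 1 (7.95) but above that of horse 2 (6.53). Its direction there therefore depends on the averaging, while C1QB and C1QC lay below both horses. In horse 3 the other 5 genes were higher by 1.63 to 3.58 on the arrays where all 3 C1q chains were lower.

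Likeness of profile was measured over the 17 arrays as the root mean square difference of log2 values, after each gene's own mean was subtracted. Among all 16661 genes, the gene closest to C1QA was C1QC (0.52), and the gene closest to C1QB was C1QC as well (0.52). Nearest to C1QC were C1QA, C1QB and APOE, a lipid carrier made by macrophages among other cells (0.54). The collagen-processing enhancer PCOLCE2 also stood among the 3 genes nearest to C1QA (0.62) and C1QB (0.59). None of the 5 other genes was among the 3 nearest of another. Closest to C5AR1 were CTSS, a lysosomal protease of antigen-presenting cells (0.43), TYROBP, a signalling adaptor of myeloid receptors (0.48), and the chaperone PDIA3 (0.48). Closest to ITGAM were NCKAP1L, an actin regulator of blood cells (0.45), ANKS1A (0.51) and GNG5, a G protein subunit (0.51).

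C3AR1 was nearest to HACD4, an enzyme of long fatty acid synthesis (0.46), to LAPTM4A, a lysosomal membrane protein (0.48), and to OAT, an enzyme of ornithine metabolism (0.48). CFP was nearest to POLD3, a DNA polymerase subunit (0.35), LOC100054877 (0.36) and EXOC1, a subunit of the exocyst (0.37). ITGAX was nearest to ANKRD17 (0.20), the RNA-binding protein LARP1 (0.24) and CPEB4 (0.26). Among pairs of the 8 genes, CFP and ITGAX had the smallest difference (0.45) and C3AR1 and C1QC the largest (1.76). ITGAM and ITGAX, which pair with the same beta chain, differed by 0.87, and C3AR1 and C5AR1 by 0.81. These sizes depend on how far each gene varies, by a root mean square of 0.87 for ITGAX and 1.75 for C3AR1. By rank among named genes, C5AR1 was number 188 in nearness to C3AR1, and ITGAM number 6368 to ITGAX. ITGAX was number 71 to CFP, while C1QC was number 1 to C1QA. Each of these likenesses is a description of arrays that share horses and times.

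Other complement genes were grouped by role. Of all named genes, 18% were called higher at day 7 and 8.43% lower, the shares against which the counts of each list are to be read. Of 11 measured receptors and receptor partners, 9 rose at day 7 and 0 fell, with a median log2 change of 1.41, against -0.040 over all named genes. LRP1, an endocytic receptor for many ligands, rose by 2.51 ± 0.46 (SE, adjusted p = 0.00625). FCER1G, the gamma chain of Fc receptors, rose by 2.13 ± 0.51 (adjusted p = 0.0141). Its call was lost without horse 3 or 5, without the Day 7 array of either and with array spread as a covariate. VSIG4, a receptor for C3 fragments on resident macrophages, rose by 1.74 ± 0.40 (adjusted p = 0.0123). ITGB2, the beta chain (CD18) with which ITGAM and ITGAX pair, rose by 1.41 ± 0.25 (adjusted p = 0.00595).

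At 24 h, where 0.72% of named genes were called higher and 0.126% lower, ITGB2 was the only one of these 11 genes called (adjusted p = 0.0339, limma), by 1.27 ± 0.24 (SE). It stood at 7.63 ± 0.68 (SD, n = 6) before the injection and at 8.90 ± 0.38 (SD, n = 6) after it. This call was lost in 22 of 36 alternative settings, among them the fit without the block, quantile normalization and the fits without any one of horses 1, 2, 3, 5 or 6. Over all settings the change ran from 0.75 to 1.44. The median of the 11 genes at 24 h was 0.64, and 11 of 11 changes were above 0. Between 24 h and day 7 none was called, and the smallest p belonged to C1QBP, a mitochondrial protein that binds C1q (1.06), and CD93, a glycoprotein first described as a C1q receptor (0.66).

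Of 11 measured classical and lectin pathway genes, 2 rose at day 7 and 0 fell, with a median of -0.044, a count near the 18% of named genes called higher. C2, the protease of the classical C3 convertase, rose by 1.42 ± 0.29 (SE, adjusted p = 0.00849), from 5.23 ± 0.37 (SD, n = 6) to 6.67 ± 0.94 (SD, n = 5). COLEC12, a scavenger receptor with a collectin domain, rose by 1.49 ± 0.47 (adjusted p = 0.0339), a call lost in 15 of 36 settings. These include quantile normalization, both nearly identical columns kept, the fits without horse 3, 4, 5 or 6, without the Baseline array of any one of horses 2 to 6, and without the Day 7 array of horse 3, 4 or 5. Of the 7 terminal components that form the membrane attack complex, 0 rose and 1 fell, with a median of -0.38, where 8.43% of named genes and 15.4% of all probe sets were called lower. C8A, a chain of the pore-forming C8 protein, had a change of -0.89 ± 0.28 (SE, adjusted p = 0.0321). It was dim, at 3.78 ± 0.23 (SD, n = 6) and then 2.86 ± 0.33 (SD, n = 5), where array medians ran from 3.64 to 4.04. Dim probe sets tended to fall at day 7, with a median change of -0.61 over the dimmest 7643 and -0.30 over the next 7638. Whether the terminal components differed from probe sets of like brightness was not tested. The change of C8A was not steady. Its call was lost in 16 of 36 settings, among them quantile normalization and median centring, the fits without any one of horses 3 to 6 and those without the Baseline array of horse 2, 4, 5 or 6 or the Day 7 array of horse 3, 4 or 5. CFB, the only alternative pathway enzyme measured, had a change of -0.16 ± 0.25 (SE, adjusted p = 0.639), which was above 0 after quantile normalization.

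Of 11 measured complement regulators, 2 rose at day 7 and 0 fell, with a median of -0.37, again near the 18% of named genes called higher. CD55, which protects host cells by splitting the C3 convertases, rose by 1.90 ± 0.53 (SE, adjusted p = 0.0228), from 5.78 ± 1.055 (SD, n = 6) to 7.70 ± 0.94 (SD, n = 5). C4BPA, a chain of the C4b-binding protein, rose by 2.25 ± 0.61 (adjusted p = 0.0205). Both calls were lost after quantile normalization, with array spread as a covariate, without horse 3 or 5 and without the Day 7 array of either. That of CD55 was also lost without horse 6, without the Baseline array of horse 3 or 6, and without the Day 7 array of horse 4. At 24 h no gene of these 4 groups was called. The smallest p there belonged to COLEC11 (-0.49) and MASP2 (-0.41) of the lectin pathway, C5 (-0.28) and C8A (-0.33) of the terminal components, and C4BPA (1.47) and VTN (-0.36) of the regulators. Between 24 h and day 7, COLEC12 (1.79), C2 (0.96), CD55 (1.84), CPN2 (-0.45), C8A (-0.56), C5 (-0.21) and CFB (-0.30) had the smallest p of their groups, and none was called.

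**Figure D4:**
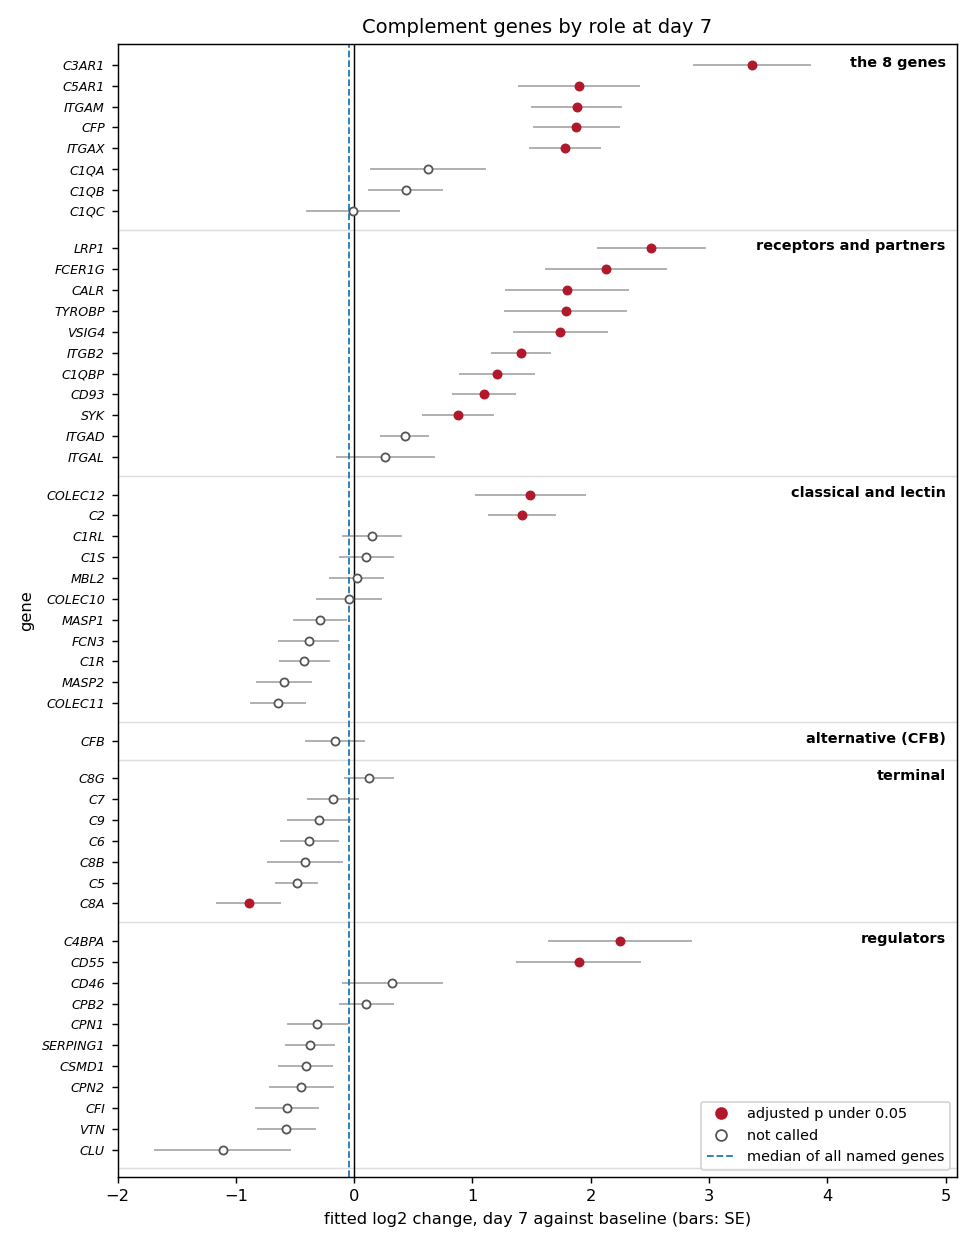
Fitted log2 change at day 7 against Baseline (x axis, bars are SE) of the 8 genes and of the other measured complement genes (y axis), grouped by role. Red points passed the test. They are 5 of the 8 genes, 9 of 11 receptors and partners, 2 of 11 classical and lectin genes, 1 of 7 terminal components (lower) and 2 of 11 regulators.

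Most measured markers of macrophages were also called higher at day 7. Whether they and the receptors moved together over the arrays was not tested. Of 16 listed monocyte or macrophage markers 12 were measured, and at day 7 8 rose and 0 fell, with a median log2 change of 2.21, where 18% of named genes were called higher. Their summed linear level ran from 1774 to 6012 at Baseline, from 1408 to 8839 at 24 hr and from 4041 to 12148 at Day 7. Of 9 resident lining macrophage markers 8 were measured and 6 rose, with summed levels of 199 to 418 at Baseline and 508 to 2221 at Day 7. VSIG4 is in this list and TYROBP in the former, so these counts overlap with those of the receptors and partners. Of 14 neutrophil markers 11 were measured. At day 7 TREM1 rose and CXCR2 fell, with a median log2 change of -0.37 and 1 of 11 changes above 0. Summed levels were 227 to 773 at Baseline, 402 to 4382 at 24 hr and 245 to 569 at Day 7. The top of the 24 hr range was the array of horse 3, and the next highest was 1535 in horse 6. Between 24 h and day 7 the median change of these markers was -0.58, with 0 of 11 above 0 and 0 called.

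Markers of lymphocytes stood lower or did not pass the test. At day 7, 3 of 12 T cell markers fell, as did 2 of 11 markers of NK or cytotoxic cells and 2 of 6 measured B or plasma cell markers, and none rose. Of all named genes 8.43% and of all probe sets 15.4% were called lower, so counts as small as these are not a result about the lists. Of 8 measured dendritic cell markers 3 rose, where 18% of named genes were called higher. Of synovial fibroblast, chondrocyte and platelet markers 1 each fell, of 11, 9 and 4 measured, and no endothelial or red blood cell marker was called, of 6 and 4. The summed level of the fibroblast markers was 1233 on the Baseline array of horse 1 and 225 to 328 on the other Baseline arrays. No marker was at 0 on any array, but neither was any other probe set. A value above 0 therefore does not show that a marker was detected. At 24 h, CD163 and LGALS3 of the monocyte or macrophage list rose, as did MERTK of the resident lining list and TREM1 of the neutrophil list. GZMB of the NK or cytotoxic list fell. At that time 0.72% of named genes were called higher and 0.126% lower. The part of these cell types in the changes of the complement genes was not tested.

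**Figure D5:**
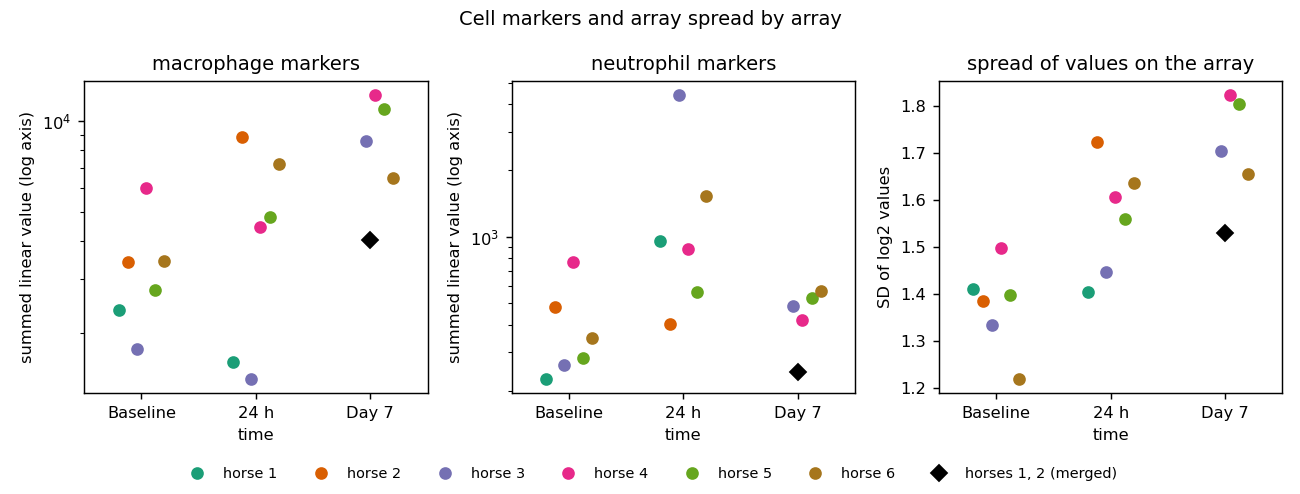
Summed linear level of 12 macrophage and 11 neutrophil markers (log axes) and SD of the log2 values of each array (linear axis), by time, with 1 point per array and a black diamond for the array shared by horses 1 and 2. Macrophage markers at Day 7 run from 4041 to 12148 against 1774 to 6012 at Baseline, and the SD of the arrays at Day 7, from 1.53 to 1.82, lies above that of all Baseline arrays.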

How the data were processed

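The deposited values are on a log2 scale. The submitters' processing notes name RMA, the Affymetrix Expression Console and, in version 3.0, the Transcriptome Analysis Console, without saying what each did. Per the labels' protocols, RNA was taken from 200 µl of fluid and kept at a RIN of 8 or more. The 18 columns were reduced to 17 arrays, the Day 7 array of horses 1 and 2 being attributed in equal parts to both. Each of 30559 probe sets was fitted with time and horse in limma 3.58.1 under R 4.3.3 by lmFit and eBayes (9 residual degrees of freedom, two-sided p) and adjusted by Benjamini-Hochberg over all of them at 0.05. The fit was also run on simulated data, drawn without differences between horses or in array spread. That run therefore does not test how the fit handles such differences. Pairing comes from the horse names in the labels. Deviations from the time means correlated at a median of -0.023 over 18 pairs of arrays that share a horse and -0.0037 over 78 pairs that do not.

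Probe sets were named from the platform's annotation table. It gives 1 symbol for 16789, several for 343 and none for 13427. The 9 genes, the other complement lists and the marker lists were chosen with earlier results of these data known. All measured members are named. Each other complement list contributes its called genes, at most the 4 of lowest p, or without any call the 2 of lowest p. The 3 genes nearest to each member are also named. Lists are described by counts and medians. Alternatives were the block, the arrays compared, quantile normalization, median centring, a filter on dim probe sets, a variance trend, array weights, the treatment of the merged array, array spread as a covariate, and each horse and array left out. Averaging the probe sets of a gene does not apply, since each member has 1. Figures were drawn with matplotlib 3.10.9.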

Additional observations from a re-analysis of the deposited data

Results flagged for a closer look

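Of 24 sets of arrays checked (8 genes at 3 times), 1 held an array far from the rest, and chance flags about 1 in 20 such sets. C3AR1 was at 6.40 on the Baseline array of horse 4, against 4.11 to 4.93 on the other 5 Baseline arrays. Without this array its log2 change at day 7 was 3.59 ± 0.53 (SE, adjusted p = 0.00498, limma). The same array was highest at Baseline for C5AR1, ITGAX and ITGAM.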

How the results depend on the processing

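At 24 h the count of called members was 0 in all settings but those that leave out a horse or array, where it ran from 0 to 1 (limma), and the count at day 7 ran from 4 to 5 over these, was 4 after quantile normalization and 0 with array spread as a covariate. Between day 7 and 24 h the count was 4 with array weights, whose estimation did not fully converge, and 0 to 1 with horses or arrays left out. The counts over all probe sets were less steady. Without the replicate block 437, 9227 and 0 were called in the 3 comparisons, and 0, 5 and 0 members, those at day 7 being the same 5. At 24 h the count was 608 with the horse as a random effect, 2 on the arrays of the 2 times alone, 107 after quantile normalization (65.4% higher, against 53.5%), 164 after median centring (64.6% higher), 157 without the dimmest probe sets, 488 with both identical columns kept, 494 and 168 with the merged array given to horse 1 or 2, and 1 with array spread as a covariate. At day 7 it was 2858 after quantile normalization (56.4% higher, against 43.7%), 5090 without the dimmest probe sets, 13636 with array weights and 0 with array spread as a covariate, and after median centring 60.2% of calls were higher. Between day 7 and 24 h it was 4821 with array weights and 12 with the merged array given to horse 1. With horses or arrays left out, the counts ran from 5 (without horse 5) to 1257 (without the Baseline array of horse 1) at 24 h and from 1761 (without horse 5) to 10934 (without the Baseline array of horse 1) at day 7. At day 7 the count was also lower by over 1.5 times without horse 3, 4 or 6, without the Baseline array of horse 2, 5 or 6 and without the Day 7 array of horse 3, 4 or 5. At 24 h it was within 1.5 times of 310 only without horse 1, without the Baseline array of horse 4, the 24 hr array of horse 1 or 3, or the merged array. Between the later times it ran from 0 to 965, above 0 only without horse 2, its 24 hr array, the merged array or both arrays. The fit without both the 24 hr array of horse 2 and the merged array was added after seeing the data.

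Changes that reversed their sign were, with array spread as a covariate, C3AR1 (-0.54), C5AR1 (-0.67), CFP (-0.25), C1QA (-0.91), C1QC (-0.36), C8A (0.23) and C4BPA (-0.51) at 24 h. At day 7 they were C5AR1 (-0.46), C1QA (-1.07), C1QB (-0.86), COLEC12 (-0.96), CFB (0.77), C8A (0.076), C4BPA (-1.17) and CD55 (-0.60), and between day 7 and 24 h C1QA (-0.16), C1QB (-0.077) and CFB (0.086). After quantile normalization C1QA (-0.33) and C1QC (-0.36) at 24 h, CFB at day 7 (0.064) and C5 between the later times (0.0078) reversed. After median centring C1QB at 24 h (0.013) and C1QC at day 7 (0.14) and between the later times (0.028) did. C1QC at day 7 was 0.028 on the arrays of the 2 times alone and 0.016 with the merged array given to horse 2. With horses or arrays left out, C1QA ran from -0.41 to 0.58, C1QB from -0.19 to 0.24, C1QC from -0.26 to 0.34 and CFB from -0.042 to 0.37 at 24 h. C1QC ran from -0.43 to 0.27 at day 7 and from -0.36 to 0.17 between the later times (without the merged array it was 0.090 and 0.022), and CFB from -0.32 to 0.016 at day 7. None of these passed the test in the setting that reversed it. The cause was not tested.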
